A study of Mus musculus with 5 samples.

Results

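Flk1-positive mesoderm was compared with Bra-positive mesoderm of the same day, for 22616 genes and transcripts of the 24801 on the array. Both populations came from embryoid bodies, aggregates in which mouse embryonic stem cells differentiate in culture. The labels describe Bra-positive cells of day 4.5 as early mesodermal and Flk1-positive cells of day 4.5 as cardiac mesodermal, and give the isolated cells no line, reporter, antibody or treatment. The other RNAs of the 5 two-colour oligonucleotide arrays were from Rex1-positive undifferentiated stem cells of day 0 and Nkx2.5-positive cardiac progenitor cells of day 7.5. Flk1 and Bra RNA were never hybridised on one array, so each gene was read indirectly along 2 routes. Reading 1 was the log2 ratio of Flk1 over Rex1 minus that of Bra over Rex1. Reading 2 was the log2 ratio of Nkx2.5 over Bra minus that of Nkx2.5 over Flk1. A positive reading means a higher level in Flk1 cells. Genes were kept where Flk1, or Bra, was well above background on both of its arrays, that is above percentile 95 of 96 negative control spots. Of the 22616, 14310 carry a gene name.

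Bra is the T-box transcription factor encoded by T, which marks the primitive streak and the mesoderm leaving it. Flk1 is the receptor for vascular endothelial growth factor encoded by Kdr. In the embryo it appears in mesoderm that gives rise to blood vessels, blood, and part of the heart. The transition runs through Etv2 and its partners to SoxF transcription factors and to receptors such as Tek, while streak factors such as T and Fgf8 are switched off. The comparison therefore sets an earlier mesodermal marker beside a later one at a single time.

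The readings share no array. Within each reading both mesoderm populations carried the same dye, Cy5 in reading 1 and Cy3 in reading 2. Each array was hybridised once, without a dye swap or a second sample of any population, so there is no spread between samples and no test. A gene is called higher in a population where both readings passed a fold of 1.5, a log2 difference of 0.585, in the same direction, with that population well above background on both of its arrays. A stricter call uses a fold of 2. The distance between the readings gives the error: the SD of reading 1 minus reading 2 was 0.399 over all genes, which is an error of 0.200 on their mean. In 4 equal brightness groups of genes, from group 1, the dimmest, to group 4, that error was 0.280, 0.225, 0.151 and 0.0838. It leaves out whatever both routes share, including the RNA itself and the place of a spot on the array.

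The sort markers moved with the labels, T by less than Kdr. Kdr had log2 ratios of 0.68 on Flk1 over Rex1, -0.14 on Bra over Rex1, 0.11 on Nkx2.5 over Bra and -0.52 on Nkx2.5 over Flk1. Its readings were 0.83 and 0.63, a mean fold of 1.66 higher in Flk1, and it was called at 1.5-fold. For T the same arrays gave 0.81, 1.07, -0.81 and -0.54. T was thus above Rex1 and above Nkx2.5 in both mesoderm populations, and its readings of -0.26 and -0.27 put it 1.20-fold higher in Bra. That is past the error for its brightness group, 0.0838, but short of 1.5-fold. Zfp42, which encodes Rex1, was at -1.75 and -1.74 against Rex1 cells in the Flk1 and Bra populations, and its readings of -0.01 and 0.01 did not separate them. Nkx2-5, the cardiac homeobox gene, read 0.13 and -0.65, with opposite signs.

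At 2-fold, 5 genes were higher in Flk1, 0.0221% of those tested, and 1 in Bra, 0.00442%. The 5 were Ctla2a, Sox18, Gng11, H4c9 and Dusp2. Ctla2a encodes an inhibitor of cathepsin-type cysteine proteases. It had ratios of 1.67 on Flk1 over Rex1, -0.41 on Bra over Rex1, 1.55 on Nkx2.5 over Bra and -0.34 on Nkx2.5 over Flk1. Flk1 stood above Rex1 while Bra stood below it, and the Nkx2.5 cells lay above Bra but not above Flk1. The readings, 2.09 and 1.90, average to 3.98-fold.

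Sox18, the SoxF transcription factor of early endothelium, gave 1.27, -0.92, 0.37 and -1.19 on the same 4 arrays, with readings of 2.19 and 1.56. Bra was well above background on 1 of its 2 arrays for Sox18, so its level there was measured once. Gng11, a gamma subunit of heterotrimeric G proteins, gave 1.61, 0.03, 1.07 and -0.38. Bra lay at the level of Rex1, and the readings of 1.58 and 1.45 differ by less than the error. H4c9, one of many nearly identical histone H4 genes, gave 1.48, 0.15, 0.79 and -0.52. Its probe may take up RNA of the other copies, and its readings were 1.33 and 1.30. Dusp2, a phosphatase that inactivates MAP kinases, gave 0.92, -0.70, 0.47 and -0.65. Its readings were 1.62 and 1.12, and a second probe of the gene read 1.26 and 0.95.

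**Figure D1:**
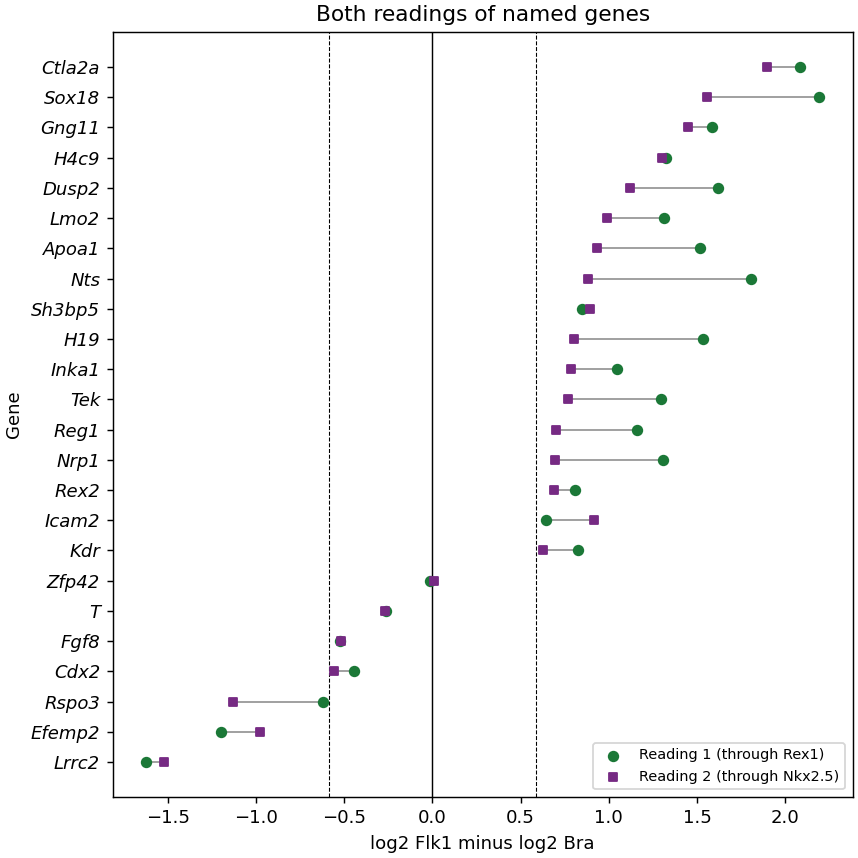
Both readings of 24 named genes, as log2 Flk1 minus log2 Bra, with circles for reading 1 through Rex1 and squares for reading 2 through Nkx2.5; dashed lines mark a fold of 1.5. Ctla2a, at 2.09 and 1.90, and Sox18 lead on the Flk1 side, T lies between 0 and the line, and Lrrc2, at -1.62 and -1.52, is the lowest.

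At 1.5-fold, 34 genes were higher in Flk1, 0.15% of those tested, 27 of them with a gene name. Lmo2, a LIM protein that bridges transcription factors in blood and vessel precursors, had ratios of 1.59 on Flk1 over Rex1, 0.27 on Bra over Rex1, 0.41 on Nkx2.5 over Bra and -0.58 on Nkx2.5 over Flk1. With readings of 1.32 and 0.99 it fell just short of 2-fold in the second. Tek, the angiopoietin receptor of endothelial cells, gave 0.87, -0.43, 0.48 and -0.29 on those arrays, and readings of 1.30 and 0.77. Icam2, an adhesion molecule of endothelium and leukocytes, gave 0.91, 0.27, 0.83 and -0.09. Its second reading was the larger, 0.64 and 0.92. Nrp1, a co-receptor for vascular endothelial growth factor and semaphorins, gave 2.48, 1.18, 1.73 and 1.03, with readings of 1.31 and 0.70. Unlike the preceding genes it was higher still in Nkx2.5 cells, and Rex1 was not well above background on either array.

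Of 42 bright genes on a list of endothelial and hemangioblast genes, 7 were called higher in Flk1, 16.7% against 0.15% of all genes, and 0 higher in Bra. They are Ctla2a, Sox18, Gng11, Lmo2, Tek, Icam2 and Kdr. The list median was 0.16 in reading 1 and 0.10 in reading 2, against -0.00485 and -0.00606 over all genes. Both readings were positive for 25 members, 59.5%, and both negative for 8, 19.1%, against 25.6% and 27.9% of all genes. The list was drawn up with results of these arrays known, so its direction is a description.

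Among the members not called, Egfl7, a secreted protein of endothelial cells, came close, with readings of 0.48 and 1.20. Etv2, the ETS factor at the top of the vascular programme, read 0.58 and 0.43. Cd34 read 1.08 and 0.37, and Hhex 1.07 and 0.17, so that reading 1 alone passed 2-fold. Esam, a junction molecule, read 0.41 and 0.40. Other members of the list were near 0, had readings of opposite sign or leaned to Bra. The lowest values over the list were -0.87 in reading 1 and -0.89 in reading 2, and 8 members were negative in both. Cdh5, the endothelial cadherin, read -0.01 and -0.11, Pecam1 -0.08 and 0.05, and Flt1, another receptor for vascular endothelial growth factor, -0.33 and 0.16. Sox17, a SoxF relative of Sox18, read -0.03 and -0.89, away from it. Tal1, the partner of Lmo2, read 0.03 and 0.02. Tie1 was not well above background in either population on both arrays.

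**Figure D2:**
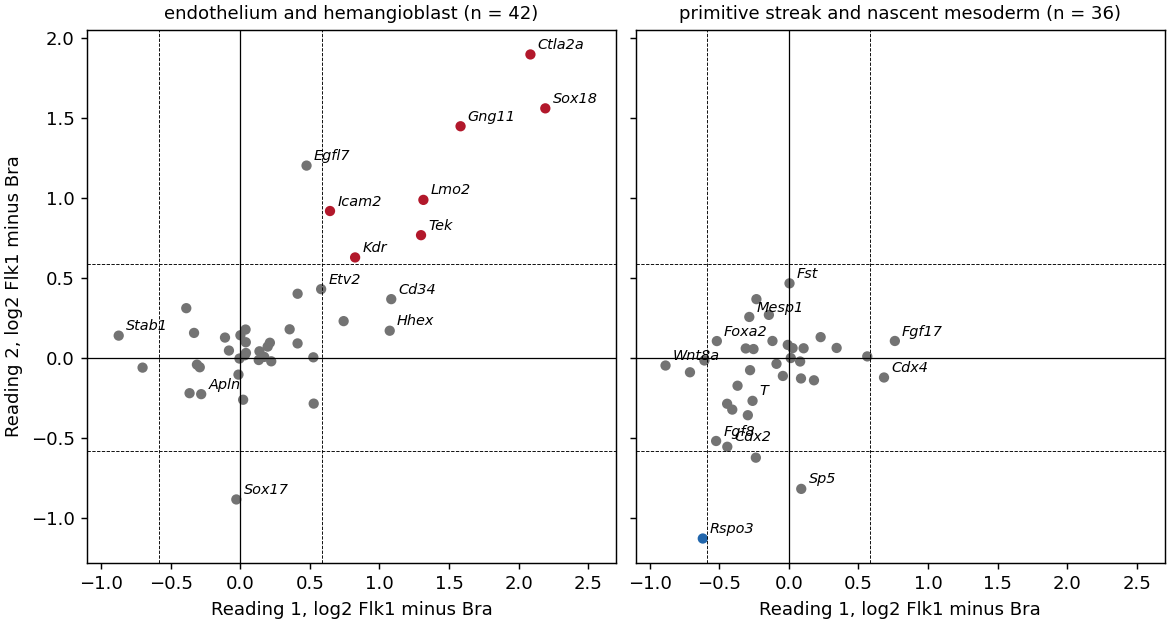
Reading 1 against reading 2 for the bright members of the endothelial and hemangioblast list (42 genes) and the primitive streak list (36 genes); red points were called higher in Flk1 and blue in Bra at 1.5-fold, the dashed lines. 7 endothelial genes lie in the upper right corner, and Rspo3 alone is called among the streak genes.

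The ligands and receptors of vessels had 3 of 24 members called, 12.5% against 0.15% of all genes. They are Tek, Nrp1 and Kdr, all higher in Flk1. Vegfa, the main ligand of Flk1, read -0.21 and -0.27 by its brightest probe, and its other 3 probes had opposite signs between the readings. Angpt1, the ligand of Tek, read 0.85 and 0.23, where 1 of the 2 Bra channels was well above background, and Angpt2 0.22 and 0.25. Nrp2 read 0.69 and 0.17. Among 18 blood genes none was called in either direction, where 0.15% and 0.19% of all genes were. Hbb-bh1, an embryonic globin, was higher in Flk1 by reading 1 alone, at 1.33 against 0.28, and Gata1 and Klf1, which define red cells, read 0.19 and -0.02 and 0.13 and -0.13.

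The others of the 15 leading names of the Flk1 side were not vascular by their known roles. Apoa1, an apolipoprotein made by visceral endoderm and liver, had ratios of 1.48 on Flk1 over Rex1, -0.04 on Bra over Rex1, 0.37 on Nkx2.5 over Bra and -0.56 on Nkx2.5 over Flk1, and readings of 1.52 and 0.93. It was the single gene called among 27 endoderm genes, 3.70% against 0.15% of all genes. The medians of the list were 0.01 and -0.06. Foxa2 and Ttr, which define endoderm, had readings of opposite sign, -0.52 and 0.10 for Foxa2 and -0.50 and 0.17 for Ttr, and Afp read 1.03 and -0.06. Any part of endoderm cells in the Apoa1 value was not tested.

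H19, an imprinted untranslated RNA, gave 1.12, -0.41, 1.56 and 0.76 on the same arrays. It was lower in Bra than in each of the other populations, and its readings were 1.53 and 0.80. It was the only gene called in brightness group 4. Nts, the neurotensin precursor, read 1.80 and 0.88, and Inka1, an inhibitor of the kinase Pak4, read 1.04 and 0.78, both with Rex1 not well above background on either array. Each also had at least 1 spot marked Bad in the deposited files and was not called with such spots left out. From the authors' deposited values the mean reading of Nts was 0.49. Sh3bp5, an SH3-domain binding protein, read 0.85 and 0.89. Reg1, a secreted lectin of the pancreas, read 1.16 and 0.70. Rex2, listed among the stem cell genes, gave -1.49 and -2.29 against Rex1 cells in Flk1 and Bra, so it had fallen less in Flk1, with readings of 0.81 and 0.69. Dppa2, another stem cell gene, followed at 0.31 and 0.73. These 2 do not stand for the list of 33 bright pluripotency and epiblast genes. Both readings were positive for 9 of them, negative for 10 and of opposite sign for 14, with medians of 0.03 and -0.05. Nanog, described below, leaned to Bra. Further named Flk1 calls, besides Icam2, Kdr and Lpar6, were Tlr7, Ddx3y, Zfp445, Nxpe2, Pcgf5, Vmn1r16, Spt2, Bcl2l10 and Olfr998. Those from Tlr7 to Olfr998 were called again under 7 or 8 of 13 other settings. Vmn1r16 is a vomeronasal and Olfr998 an odorant receptor.

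The RefSeq promoters of 4 of these genes are shown, the sort markers Kdr and T and a pair of genes of the endothelial list with both readings positive, to set the measured genes beside their sequence. Each run is the 250 bases before a start site on the strand of the gene, in build GRCm38.p6, with matches in capitals. The letters searched, on both strands, were CCGGAA for ETS factors, AGATAA for GATA factors, ATCAAAG for TCF/LEF, AGGTGTGA for T-box factors and ACAATG for SOX factors.
Kdr, chr5:75978456-75978705, minus strand, with 1 ETS match: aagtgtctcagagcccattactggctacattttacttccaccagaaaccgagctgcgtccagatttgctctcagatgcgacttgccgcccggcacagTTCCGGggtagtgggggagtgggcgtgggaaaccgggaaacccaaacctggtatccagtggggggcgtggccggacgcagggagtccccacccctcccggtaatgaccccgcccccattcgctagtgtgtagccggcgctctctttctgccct
Ctla2a, chr13:60936626-60936875, minus strand, 1 of 2 listed starts, the other without a match, with 1 GATA match: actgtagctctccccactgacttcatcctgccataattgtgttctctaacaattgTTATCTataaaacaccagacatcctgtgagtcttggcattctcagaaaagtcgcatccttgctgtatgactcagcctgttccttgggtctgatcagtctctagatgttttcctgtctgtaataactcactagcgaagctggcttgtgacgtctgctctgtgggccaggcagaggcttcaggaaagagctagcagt
Egfl7, chr2:26580833-26581082, plus strand, 1 of 3 listed starts, the others without a match, with 1 TCF/LEF match: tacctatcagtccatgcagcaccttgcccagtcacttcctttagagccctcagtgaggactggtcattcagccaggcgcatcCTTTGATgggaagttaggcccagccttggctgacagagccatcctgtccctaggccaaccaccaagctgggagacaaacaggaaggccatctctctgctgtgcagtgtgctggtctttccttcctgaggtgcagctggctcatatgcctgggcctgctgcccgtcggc
T, chr17:8434173-8434422, plus strand, with no match: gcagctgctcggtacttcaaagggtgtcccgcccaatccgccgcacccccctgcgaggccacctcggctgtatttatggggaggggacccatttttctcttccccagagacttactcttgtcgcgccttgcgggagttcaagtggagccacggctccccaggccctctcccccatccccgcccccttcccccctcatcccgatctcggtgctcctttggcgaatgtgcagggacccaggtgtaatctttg
The ETS letters began 153 bases before the start of Kdr, the GATA letters 195 bases before that of Ctla2a and the TCF/LEF letters 168 bases before that of Egfl7. The table holds 18 of the 34 genes called higher in Flk1. Among these the ETS letters occurred in 2, 11.1%, against 13.6% of 27025 genes, and the GATA letters in 4, 22.2%, against 11.4%. The TCF/LEF letters occurred in 1, 5.56%, against 3.72%. No match was found for T-box or SOX letters in the 18, against 1.30% and 12.2% of all. Of 27 endothelial list genes the ETS letters occurred in 7.41%, the GATA letters in 14.8% and the TCF/LEF letters in 3.70%. Egfl7, which was not called, is the 1 list gene with TCF/LEF letters. Among 22 genes called higher in Bra the same letters occurred in 13.6%, 4.55% and 0%. A match is a run of letters and does not show that a factor binds.

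On the Bra side 43 genes were called at 1.5-fold, 0.19% of those tested, 29 of them named. Lrrc2, a leucine-rich repeat protein of heart and muscle, was the 1 gene past 2-fold. It had ratios of -0.89 on Flk1 over Rex1, 0.73 on Bra over Rex1, -0.01 on Nkx2.5 over Bra and 1.52 on Nkx2.5 over Flk1, and readings of -1.62 and -1.52. Flk1 was well above background on 1 of its 2 arrays. Efemp2, fibulin-4 of elastic fibres, gave -0.10, 1.10, 0.10 and 1.08. It was lower in Flk1 than in Bra and Nkx2.5 cells, which were alike, with readings of -1.20 and -0.98. Rspo3, a secreted enhancer of Wnt signalling, gave 1.73, 2.35, -0.64 and 0.49. It was above Rex1 cells in both mesoderm populations, where Rex1 was not well above background on either array, and its readings were -0.62 and -1.13. At least 1 spot behind Rspo3 was marked Bad in the deposited files. It was not called with such spots left out, nor with an offset of 16 in the background correction.

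The Bra calls were not spread over the array. The array is printed in 48 blocks, and 24 of the 43 lie in 1 corner block, column 1 of row 12, which holds 417 bright genes, 1.84% of all. No other block held over 3, and 0 genes called higher in Flk1 lie in it. The median reading over its genes was -0.31 in reading 1 and -0.27 in reading 2, while medians of the other blocks ran from -0.26 to 0.23 and from -0.15 to 0.10. Lrrc2 is in this block, as are Clvs1, Pdzd2, Cplx2, Oxnad1, Nos2, Rgs8 and Mybpc3 of the 15 leading names. Of these, Clvs1, Pdzd2, Cplx2, Oxnad1, Nos2 and Mybpc3 were not called with spots marked Bad left out. Without the block 19 genes were called higher in Bra, and with each block's median subtracted from both readings 24. With loess fitted within each block Lrrc2 read -1.38 and -0.98, no longer past 2-fold in both, while Rspo3 read -1.25 and -1.08 and passed it. Mybpc3, a sarcomere gene at -0.69 and -0.97, then read -0.42 and -0.44, and its mean reading was 0.21 with single channels after Aquantile normalisation. The brightest probe of Pdzd2 and the probe of Oxnad1 were not well above background in Flk1 on either array. A second Pdzd2 probe read -0.62 and 0.08, with opposite signs.

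**Figure D3:**
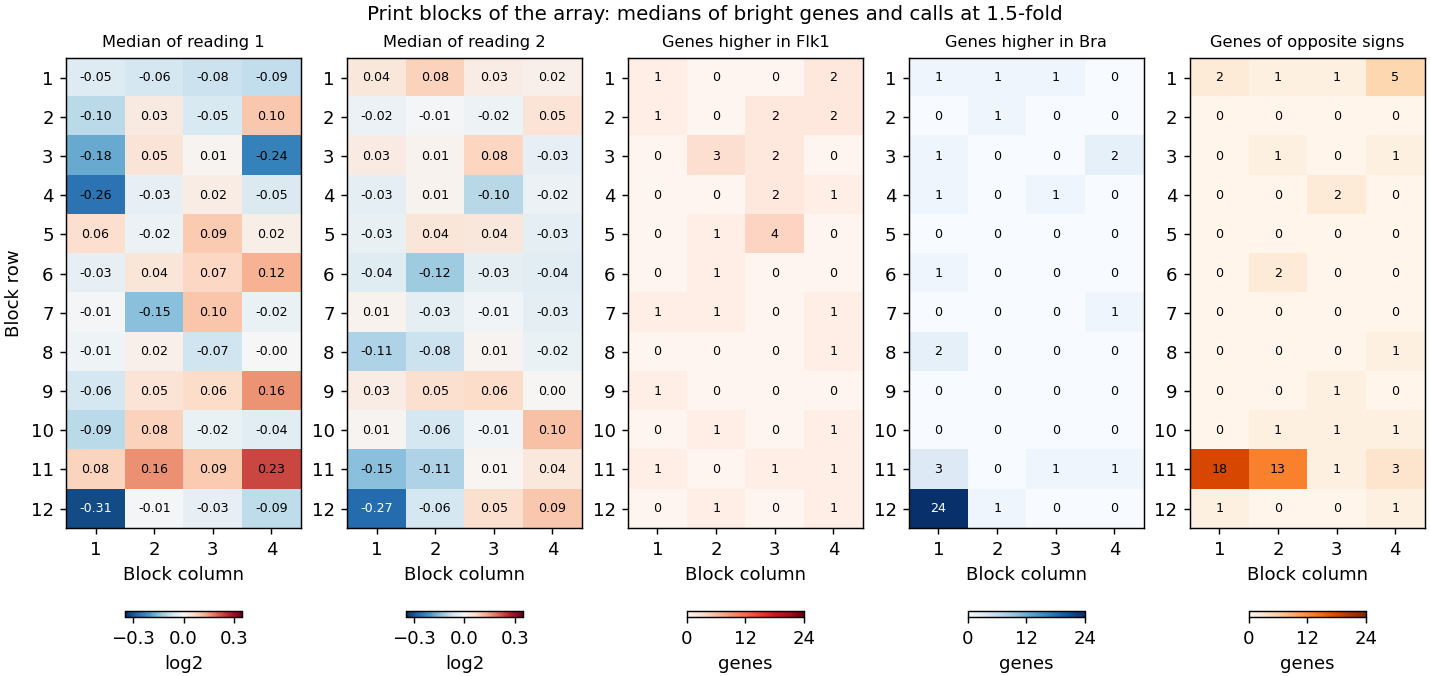
The 48 print blocks laid out as on the array, 4 columns by 12 rows, with the median of each reading over the block's bright genes (log2) and the number of genes called at 1.5-fold or past it with opposite signs. The corner block of row 12 holds 24 genes called higher in Bra, and the first blocks of row 11 hold 18 and 13 genes of opposite signs.

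Outside the corner block 13 named genes were called higher in Bra, Efemp2 and Rspo3 among them. Wdr46, a nucleolar protein of ribosome assembly, read -1.01 and -0.95, but its mean reading turned to 0.21 with single channels after Aquantile normalisation. Bves, a membrane protein of heart and muscle, read -0.94 and -0.81, and Tbl1x, a subunit of nuclear corepressor complexes, -0.83 and -0.76, each with Flk1 well above background on 1 of 2 arrays. Edn3, an endothelin, read -0.74 and -0.73, and Ifi35, an interferon-induced protein, -1.34 and -0.73. With spots marked Bad left out Edn3 was not called. Vmn1r50, a vomeronasal receptor, read -0.69 and -1.35, with Flk1 not well above background on the Nkx2.5 array behind the second value. Rspo3, Wdr46, Edn3, Ifi35 and Vmn1r50 lie in row 11 of the blocks, Wdr46, Edn3 and Vmn1r50 in its column 1 beside the corner.

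Of 36 bright genes of the primitive streak and nascent mesoderm Rspo3 alone was called, higher in Bra, and not with Bad spots left out. Of all genes 0.19% were called higher in Bra. The medians over the list were -0.19 and -0.03. Both readings were negative for 15, 41.7% against 27.9% of all genes, both positive for 7, and of opposite sign for 14. Fgf8, a growth factor of the streak, had ratios of 1.84 on Flk1 over Rex1, 2.36 on Bra over Rex1, -1.17 on Nkx2.5 over Bra and -0.64 on Nkx2.5 over Flk1. It was above Rex1 and Nkx2.5 cells in both, and its readings of -0.52 and -0.52 lie just inside 1.5-fold, while a dimmer probe disagreed at -0.66 and 0.23. Cdx2, a posterior homeobox factor, read -0.44 and -0.56, and Tdgf1, the Nodal co-receptor, -0.41 and -0.32. Mesp1 and Mixl1, factors of nascent mesoderm, had opposite signs, -0.28 and 0.26 for Mesp1 and -0.23 and 0.37 for Mixl1. Eomes read -0.25 and 0.05.

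Other Bra-leaning members of the lists were below the call. Cer1, a secreted inhibitor of Nodal, read -0.66 and -0.44. Jag1, a Notch ligand, read -0.53 and -0.64, and -0.17 and -0.62 with loess within blocks. Nanog, a stem cell gene at -0.76 and -0.49, lies in the corner block, and its second reading was 0.03 with loess within blocks. Of 32 Wnt genes Rspo3 was the 1 called, of 22 FGF genes none and of 21 Notch genes none. Of 39 genes of BMP, Nodal and activin signalling none was called, and their medians were 0.02 and -0.03. Of all genes 0.15% and 0.19% were called, so counts of none in these lists say nothing particular of the pathways.

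The labels call Flk1 cells cardiac mesodermal. Of 25 bright genes of cardiac and lateral mesoderm none was called in either direction, where 0.15% and 0.19% of all genes were, so that this count says nothing particular of heart genes. They had medians of 0.03 and -0.10. Both readings were positive for 3, which are Tbx5, Irx4 and Tbx3. Tbx5, a T-box factor of the heart, read 0.41 and 0.20 by its brightest probe. A dimmer Tbx5 probe, not well above background in either population, had opposite signs, 0.30 and -0.12. Isl1, of the second heart field, read 0.27 and -0.21, Hand1 0.32 and -0.15, Hand2 -0.26 and 0.16, and Mef2c -0.01 and -0.00. Bmp4 read 0.12 and -0.40, and Foxf1, of lateral mesoderm, -0.64 and -0.27. Of 21 sarcomere genes 1 was called, Mybpc3 of the corner block. Gata4 was not well above background in either population on both arrays. For bulk RNA of sorted cells, fewer cells of a type and less RNA per cell cannot be told apart.

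Over all 22616 genes the readings hardly moved together. Pearson's r across genes was 0.0773 and Spearman's rho 0.0790, as descriptions of genes that share arrays and are not replicates. The signs were the same for 53.5%. Reading 1 alone passed 1.5-fold for 2174 genes and reading 2 for 595. Beside the genes called, 57 passed 1.5-fold in both readings with opposite signs. At 2-fold 3 did, Bag2 at 1.04 and -1.17, and with the same signs Golph2 and Shh, each with Rex1 not well above background on either array. Of the 57, 35 lie in row 11 of the print blocks, which holds 1806 of the bright genes, against 3 of the 34 genes called higher in Flk1. Across the genes of row 11 r was -0.0433. Its Flk1 calls are Nts, Inka1 and Nrp1. With loess within each block they read 1.13 and 1.34, 0.92 and 0.66, and 0.68 and 0.59.

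**Figure D4:**
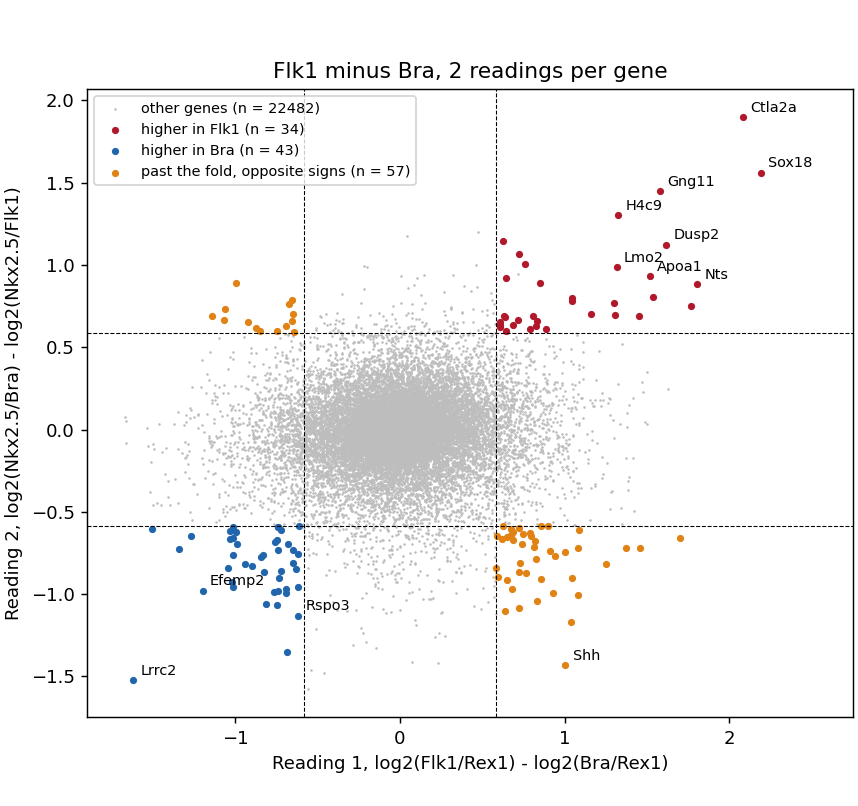
Reading 1 against reading 2 for 22616 bright genes, with 34 genes called higher in Flk1 in red, 43 called higher in Bra in blue and 57 past 1.5-fold with opposite signs in orange; dashed lines mark a fold of 1.5. The upper right corner reaches beyond 1.5 on both axes for Ctla2a and Sox18, which no gene of the opposite-sign corners does.

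Agreement rose with brightness. Ordered by mean intensity over the 4 arrays and split into 4 groups of 5654, the genes gave r of 0.0277, 0.0994, 0.140 and 0.245 from the dimmest to the brightest. The calls fell away at the same time. In group 1, 17 genes were called higher in Flk1, 36 higher in Bra and 47 had opposite signs, and in group 2 the counts were 12, 7 and 10. In groups 3 and 4, with 11308 genes, 5 were called higher in Flk1 and none was called higher in Bra or had opposite signs past 1.5-fold. The 5 are Dusp2, Lmo2, H19, Lpar6 and Kdr. Lpar6, a receptor for lysophosphatidic acid, read 0.69 and 0.64.

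**Figure D5:**
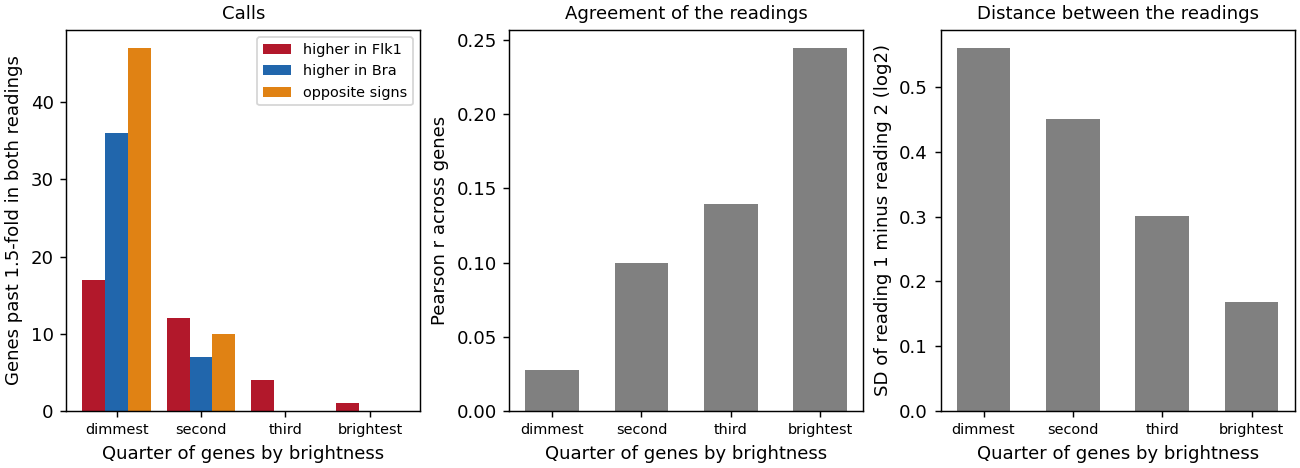
Genes past 1.5-fold in both readings, Pearson's r across genes and the SD of reading 1 minus reading 2, in 4 equal groups of 5654 genes from dimmest to brightest. Bra calls fall from 36 to 7, 0 and 0, while r rises from 0.0277 to 0.245.

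Groups 3 and 4 also hold the smaller differences that both readings share, here named after their values were seen. On the Flk1 side Igfbp4, which binds insulin-like growth factors, read 0.56 and 0.57, Mest, an imprinted gene of mesoderm, 0.50 and 0.54, and Gadd45a, a stress-response gene, 0.53 and 0.47. Itm2a, a membrane protein, read 1.11 and 0.53. On the Bra side S100a11, a calcium-binding protein, gave -0.76 on Flk1 over Rex1, -0.06 on Bra over Rex1, -0.14 on Nkx2.5 over Bra and 0.43 on Nkx2.5 over Flk1. Flk1 was thus the low population against both references, and the readings were -0.70 and -0.57. Its relative S100a10 read -0.98 and -0.46. Igfbp3, another binding protein of insulin-like growth factors, leaned the other way from Igfbp4, at -0.70 and -0.52. Phlda2, an imprinted growth regulator, read -0.50 and -0.67, and Ptprz1, a receptor phosphatase, -0.57 and -0.65.

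Repeated spots of 1 gene show how much a reading varies within the arrays. Gapdh gave -0.00 ± 0.02 in reading 1 and -0.02 ± 0.03 in reading 2 (SD, n = 11 spots), and Actb 0.00 ± 0.06 and 0.07 ± 0.03 (SD, n = 11 spots). For Hprt the values were -0.17 ± 0.08 and -0.14 ± 0.08 (SD, n = 11 spots). Across the 9 genes with 11 or 12 spots the SD had a median of 0.08 in reading 1 and 0.07 in reading 2. Spots of an array are not replicate samples. The readings of T, -0.26 and -0.27, exceed the spot SD of Gapdh, Actb and Hprt in both readings.

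Of the 34 genes higher in Flk1, 9 were called again under each of 12 other ways of processing: Apoa1, Ctla2a, Dusp2, Gng11, H19, H4c9, Kdr, Lmo2 and Sox18. Of the 43 higher in Bra 1 was, BC026631, an unannotated transcript that read -0.69 and -0.99. Of the 12 ways, 1 least-squares estimate over the 5 arrays and no brightness filter cannot drop a call. Leaving out the corner block cannot drop a Flk1 call. The mean of all probes can change, of the 9, only Dusp2, which has 2 probes. A stricter brightness filter and leaving out Bad spots keep the readings unchanged and can drop only a dim or marked gene. The authors' deposited values shared 12 of the 34 and 14 of the 43 calls. Single channels after Aquantile normalisation shared 15 and 11, and loess within each block 20 and 11. A thirteenth way, without background subtraction, left no gene past 1.5-fold in both readings in one direction, and Ctla2a read 0.48 and 0.81 there. Both readings kept their sign there for 34 of 34 genes on the Flk1 side and 41 of 43 on the Bra side. The genes had been picked for that sign from the same spots, so the kept signs are no separate support for the calls.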

How the data were processed

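Amplified amino allyl RNA was labelled with Cy dyes, per the labels' protocols. Each deposited intensity file holds a median signal and its background for both channels, per the file headers, and the values show that background was already subtracted. The deposited ratio is channel 2 over channel 1, and the deposited log2 values of the series table equal its log2 plus 1 constant per array, with the origin of some values for spots marked Bad unknown. The scanner software is not given in the sources used here.

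Foreground, rebuilt as signal plus background, went through normexp (offset 50) and loess within each array, where control spots had weight 0, for 28845 probes. This used limma 3.58.1 and R 4.3.3. Cy5 to Cy3 directions came from the labels. Tables were made in Python 3.11.15. Between 77.6% and 95.2% of probes were well above background per channel, and the number of arrays limits the precision. Probes were named through RefSeq of GRCm38.p6, where 8056 matched an accession, 5228 a symbol and 5063 a synonym of a single gene. 574 names of the files were kept and 9924 probes stayed unnamed. The brightest probe stood for a gene. Spots marked Bad were kept.

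No test was made. Rules were checked on simulated data. Named genes were the sort markers with Sox18, the 15 leading names per direction by the smaller reading, members of 20 lists past 1.5-fold or leading in a direction, list markers and the 3 most opposed genes. Angpt2, Bmp4, Cd34, Esam, Flt1, Hand1, Hand2, Isl1, Mef2c, Nrp2, Lpar6, BC026631 and the smaller differences of bright genes fall outside it, chosen with their values known. The further named Flk1 calls from Tlr7 to Olfr998 also fall outside this choice. The lists hold 476 genes, of which 457 have a probe. Members and lists were chosen with earlier results of these data known. The other settings tried are given at the end.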

Additional observations from a re-analysis of the deposited data

How the results depend on the processing

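No paired analysis was possible because each pair of populations was hybridised on 1 array, and for the same reason no replicate could be left out. The 5 and 1 genes past 2-fold (higher in Flk1, higher in Bra), 34 and 43 at 1.5-fold, 3 of opposite signs, 7 endothelial genes and r of 0.0773 were recomputed under 13 settings, 3 of them chosen after seeing the data. Counts kept within 1.5 times and r kept its sign except as follows. Without background subtraction all counts were 0 and r was 0.148. From the authors' deposited log2 values, 21 genes were higher in Flk1 at 1.5-fold, 12 of them shared, and 43 in Bra, 14 of them shared; 2 were higher in Bra at 2-fold, and r was 0.129. With 1 least-squares estimate over the 5 arrays, which needs no agreement of readings, the counts were 13 and 7 at 2-fold and 158 and 239 at 1.5-fold. Single channels after Aquantile gave 13 and 7, 84 and 78, 13 of opposite signs and r of -0.0246; there the mean reading of Mybpc3 turned to 0.21 and that of Wdr46 to 0.21. Leaving out spots marked Bad gave 28 in Bra at 1.5-fold and 0 opposite, median centring 1 opposite. Print-tip loess, chosen after seeing the data, gave 23 in Bra at 1.5-fold and 0 opposite, block medians subtracted 24 and 0, and leaving out the corner block 19 at 1.5-fold and 0 at 2-fold in Bra. Beyond what a setting's own construction shows, the cause was not tested. Of 480 values of 39 named genes, 378 moved by less than 0.200 and 100 by more, beside those 2 reversals of called genes. Many of the 378 could not move. Least squares, the changed brightness filters, and leaving out Bad spots or the corner block return the same mean reading or drop the gene. The mean of all probes can change only genes with more than 1 probe. Shh, Golph2, Bag2 and Zfp42, which were not called, also crossed 0 under some settings. The SD between readings was 0.560 in brightness group 1 and 0.168 in group 4.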

Other observations

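Hox genes, the positional transcription factors, and matrix genes were not described above. Of 25 bright Hox genes none was called at 1.5-fold, and both readings were positive for 13, 52.0%, and negative for 4, with medians of 0.08 and 0.04. Hoxa7 read 0.27 and 0.72 in brightness group 4, Hoxa5 0.29 and 0.56, and Hoxc6 -0.80 and -0.11, although a second Hoxc6 probe read -0.01 and -0.19. Of 30 mesenchyme and matrix genes none was called. Reading 1 alone was high for Mmp2, at 1.63 against 0.25, and for Col4a1, past 2-fold there against 0.35, where 2 of its other 3 probes were negative in both readings. Fn1 read 0.39 and 0.18 by its brightest probe, while a dimmer one read -0.18 in reading 1, and Vim read 0.18 and 0.19. Of 30 cell cycle genes and 19 dissociation stress genes none was called. Of all genes 0.15% and 0.19% were, so counts of none in the lists of this paragraph say nothing particular of them.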
